A study of Mus musculus with 12 samples.

Results

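The genes described here mark the cells that lie outside the epithelium of the small intestine: 10 smooth muscle genes, 14 genes of blood and lymphatic endothelium, 9 enteric neuron genes and 3 enteric glia genes. They were taken by symbol as known markers of these classes, with earlier results of these data known, and make up 36 of the 55421 gene identifiers counted. All 36 were found, and all 36 were among the 17394 genes with enough counts to be tested. Gene-level RNA sequencing counts came from mouse small intestine in 12 libraries, 4 per group. Apc Eif3h mice carried VilCreER with floxed alleles of both Apc and Eif3h (VilCreER Apc fl/fl Eif3h fl/fl), all 4 libraries from males at day 4. Apc mice carried VilCreER with floxed Apc alleles (VilCreER Apcfl/fl), 3 males and 1 female at day 4. WT mice were labelled wild type, 3 males and 1 female at day 7, and the labels do not say whether they carried the Cre. All 3 groups are described as given tamoxifen in 2 injections of 80 mg/kg, 24 h apart. The treatment text gives harvest after 7 days for all of them, which differs from the day 4 labels, so genotype and day cannot be told apart in comparisons with WT. The labels give neither the ages of the mice nor whether each replicate was its own animal. The p-values therefore rest on the spread between the 12 libraries, some of which could be technical.

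VilCreER is a tamoxifen-activated recombinase driven by the villin promoter of gut epithelial cells, so the floxed alleles are intended to be lost there and kept in the cells whose markers are described here. Apc restrains Wnt signalling by helping to degrade beta-catenin, and Eif3h is a subunit of the translation initiation factor eIF3. Smooth muscle forms the outer layers of the gut wall and a thin sheet below the mucosa, and contracts through actin and smooth muscle myosin. Blood vessels and lymphatic lacteals run through the wall and the core of each villus. Enteric neurons and their glia form the plexuses between the muscle layers and below the mucosa and control movement, secretion and blood flow. In bulk RNA from whole tissue, fewer cells of a type and less RNA per cell cannot be told apart, and neither can a fixed amount of muscle, vessel or nerve beside more RNA from other cells.

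Library totals were 10483112 to 21298301 counts. Levels below are in CPM, counts scaled to library size with edgeR's TMM factors (trimmed mean of M values), and each run of 4 values is in the order of replicates 1 to 4. Eif3h, the targeted gene, was at 28.3, 43.1, 54.6 and 25.9 CPM in Apc Eif3h, 168, 164, 158 and 175 CPM in Apc and 142, 126, 134 and 135 CPM in WT, with all 4 Apc Eif3h libraries below the other 8. Every Apc library was also above every WT library, though Apc against WT was not called (log2 fold change 0.31, adjusted p = 0.173). Eif3h is not targeted in either of these groups, so the labels of Apc and WT were not checked by it. A gene is called where edgeR's quasi-likelihood test gave a Benjamini-Hochberg adjusted p below 0.05 over all tested genes. Where libraries of 2 groups are said not to overlap, that describes the gene alone. How many of all tested genes separate in the same way was not counted, so non-overlap is not shown to be particular to these markers. The defining genes of each class were detected in all 12 libraries, the glial genes at few counts. Some libraries stand apart. Apc Eif3h replicate 2 had 1069 CPM summed over 8 B cell genes, against 12.6 to 19.4 CPM in the other Apc Eif3h and Apc libraries and 26.3 to 158 CPM in WT. WT replicate 1 had the highest endothelial, fibroblast and macrophage levels of the 12, and WT replicate 3 the highest smooth muscle level but the lowest endothelial level in WT. Where a call rests on such a library, its value without it is given beside it.

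Most of these markers were lower in both mutant groups than in WT, and no call separated the mutant groups. In Apc against WT, 21 of the 36 were lower and 1, Sox17, was higher, beside 24.1% of all tested genes called lower and 27.7% called higher. The median log2 fold change of the 36 was -0.61, beside -0.0099 over all tested genes. In Apc Eif3h against WT, 27 were lower and 0 higher, beside 28.1% and 29.8% of all tested genes, with a median of -0.78 beside -0.0286. The same 21 genes were lower in both contrasts, which share the WT libraries. In Apc Eif3h against Apc, edgeR called 0 lower and 0 higher, beside 2.78% and 4.27% of all tested genes, with a median of -0.15 beside -0.0019. In that contrast 5 members had an unadjusted p below 0.05, the smallest adjusted p was 0.0889 (Lyve1), and DESeq2 called 1 member, Lyve1. With library totals as the only scaling, the median of all tested genes moved to 0.171 in Apc Eif3h against WT and 0.221 in Apc against WT. The markers called lower were then 20 and 13, beside 3175 and 2393 of all genes called lower and 6605 and 6817 called higher, where TMM gave 4882 and 4192 lower and 5177 and 4820 higher. With male libraries only, which leaves 3 in Apc and in WT, Cdh5, Vwf, Tubb3 and Sox10 lost their call in Apc against WT and Pecam1 in Apc Eif3h against WT. The markers called in no contrast were Actg2, Des, Cnn1, Tagln, Eng, Egfl7, S100b and Gfap.

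**Figure D1:**
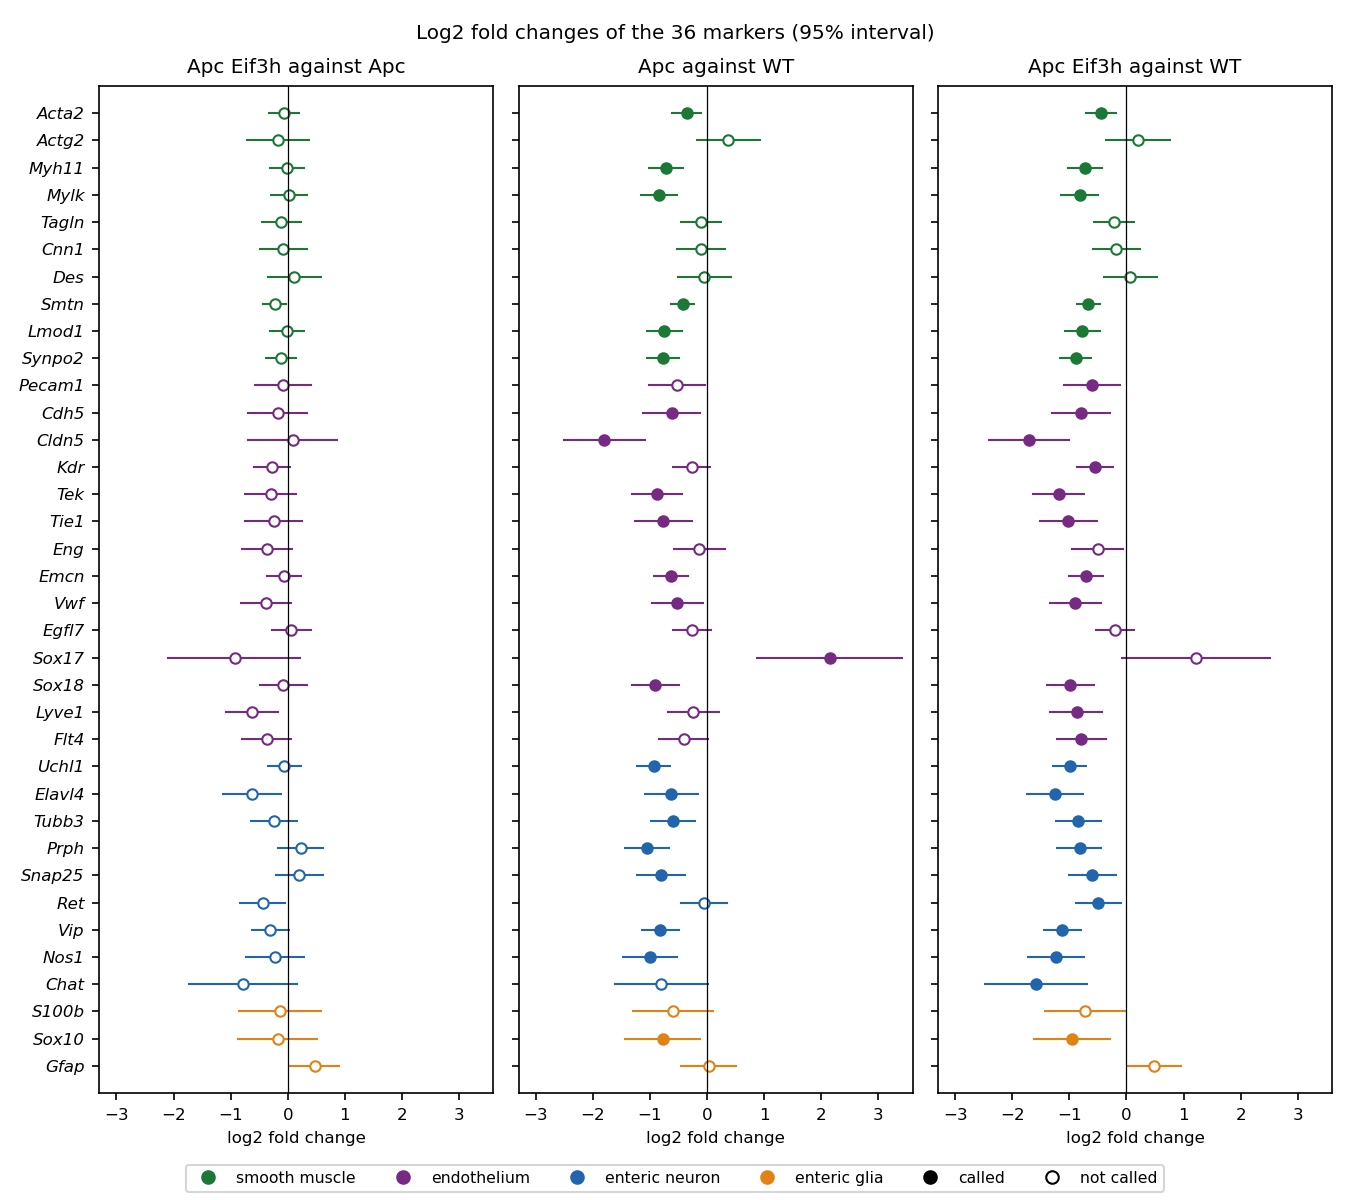
Log2 fold change (points) with its 95% interval (lines) of each of the 36 markers in the 3 contrasts, coloured by class, filled where called at an adjusted p below 0.05. Most points lie left of 0 in both contrasts with WT, Sox17 lies at 2.15 in Apc against WT, and no point is filled in Apc Eif3h against Apc.

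By class, the enteric neuron genes had the largest share called lower in the contrasts with WT. In Apc against WT, 7 of 9 neuron genes, 6 of 10 smooth muscle genes, 7 of 14 endothelial genes and 1 of 3 glial genes were lower, with median log2 fold changes of -0.81, -0.40, -0.52 and -0.59. In Apc Eif3h against WT the counts were 9 of 9, 6 of 10, 11 of 14 and 1 of 3, with medians of -0.99, -0.55, -0.79 and -0.72. Of all tested genes, 28.1% were called lower in that contrast and 24.1% in Apc against WT. The 3 glial genes are too few to set against these shares. In Apc Eif3h against Apc, the groups that share the day 4 label, 0 genes were called in any class. The medians there were -0.24, -0.08, -0.26 and -0.13, with 7 of 9, 8 of 10, 12 of 14 and 2 of 3 log2 fold changes below 0. The median over all tested genes was -0.0019, and how many of them lay below 0 was not counted. No test of one class against another was made.

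Smooth muscle genes divided into those that fell in both mutant groups and those that were called in neither. The genes that fell were Myh11, Mylk, Smtn, Lmod1, Synpo2 and Acta2, and the genes not called were Actg2, Des, Cnn1 and Tagln. Myh11, the heavy chain of smooth muscle myosin (chromosome 16, 14194535 to 14291372, minus strand, GRCm38), was at 294, 362, 330 and 360 CPM in Apc Eif3h, 317, 383, 329 and 326 CPM in Apc and 451, 531, 727 and 523 CPM in WT. Every mutant library lay below every WT library. The log2 fold change was -0.73 in Apc Eif3h against WT (SE 0.14, adjusted p = 0.000724) and -0.72 in Apc against WT (SE 0.14, adjusted p = 0.000993). Between the mutant groups it was -0.01 (95% interval -0.31 to 0.29). Mylk encodes the kinase that phosphorylates the myosin light chain to start contraction. It was at 344, 460, 521 and 454 CPM in Apc Eif3h, 402, 508, 430 and 412 CPM in Apc and 680, 735, 970 and 760 CPM in WT, again with no overlap between the mutant groups and WT. Its log2 fold changes were -0.82 in Apc Eif3h against WT (adjusted p = 0.000497) and -0.84 in Apc against WT (adjusted p = 0.000539).

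Synpo2, Lmod1 and Smtn also fell in both mutant groups. Synpo2, an actin-binding protein of muscle Z-discs and dense bodies, was at 37.4, 56.7, 44.9 and 44.8 CPM in Apc Eif3h, 55.6, 50.5, 45.6 and 48.3 CPM in Apc and 75.5, 90.4, 98.5 and 77.4 CPM in WT. Lmod1, an actin filament nucleator, was at 16.6, 16.4, 18.6 and 15.2 CPM in Apc Eif3h, 17.1, 20.5, 16.2 and 14 CPM in Apc and 28.0, 27.5, 34.9 and 23.3 CPM in WT. Both were lower in all 8 mutant libraries than in any WT library. Synpo2 had log2 fold changes of -0.89 in Apc Eif3h against WT (adjusted p = 9.11e-05) and -0.78 in Apc against WT (adjusted p = 0.000342), and Lmod1 had -0.77 in Apc Eif3h against WT (adjusted p = 0.000574) and -0.75 in Apc against WT (adjusted p = 0.000879). Smtn encodes smoothelin, a protein of contractile smooth muscle. It was at 42.4, 49.3, 50.9 and 50.4 CPM in Apc Eif3h, 54.9, 58.0, 60.6 and 53.3 CPM in Apc and 73.1, 79.6, 87.7 and 66.0 CPM in WT. Here the 3 groups did not overlap, and the log2 fold change was -0.67 in Apc Eif3h against WT (adjusted p = 0.000101) and -0.43 in Apc against WT (adjusted p = 0.0023), while -0.23 between the mutant groups did not pass (adjusted p = 0.162). An antisense gene, Gm11946, covers 16.3% of the exon bases of Smtn and averaged 16.7 ± 2.31 CPM in Apc Eif3h, 18.7 ± 5.70 CPM in Apc and 35.9 ± 8.10 CPM in WT (SD, n = 4 each). The strand setting of the counting is not given in the sources used here, so reads of the 2 genes cannot be told apart where they overlap.

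Of the 2 smooth muscle actins, Acta2 was called and Actg2 was not, and the difference between them was not tested. Acta2, the actin of vascular and visceral smooth muscle, was at 328, 331, 350 and 319 CPM in Apc Eif3h, 378, 361, 312 and 346 CPM in Apc and 363, 431, 564 and 437 CPM in WT. The Apc Eif3h libraries lay below all WT libraries, and the Apc libraries reached into the WT range. The log2 fold change was -0.44 in Apc Eif3h against WT (SE 0.12, adjusted p = 0.00771) and -0.36 in Apc against WT (SE 0.12, adjusted p = 0.0226), with the second call lost when WT replicate 3 or 1 of the Apc libraries 3 and 4 is left out (adjusted p up to 0.0683). Actg2, the actin typical of gut muscle, was at 154, 319, 166 and 236 CPM in Apc Eif3h, 252, 223, 194 and 314 CPM in Apc and 129, 178, 269 and 184 CPM in WT. All 3 groups overlapped, and its log2 fold change was 0.20 in Apc Eif3h against WT (95% interval -0.35 to 0.76, adjusted p = 0.511) and 0.37 in Apc against WT (95% interval -0.18 to 0.92, adjusted p = 0.237). Sequence shared with other genes is small for both: of all 36-base stretches of their transcripts, 0.972% for Acta2 and 0.444% for Actg2 occur in another annotated gene.

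Des, Cnn1 and Tagln were at similar levels in the 3 groups. Des, the muscle intermediate filament protein, averaged 244 ± 77.2 CPM in Apc Eif3h, 226 ± 19.9 CPM in Apc and 233 ± 61.6 CPM in WT (SD, n = 4 each). Cnn1 encodes calponin, which restrains actomyosin, and averaged 87.7 ± 21.1 CPM in Apc Eif3h, 92.5 ± 11.5 CPM in Apc and 99.3 ± 25.6 CPM in WT. Tagln encodes the actin cross-linker transgelin and averaged 50 ± 7.41 CPM in Apc Eif3h, 53.9 ± 7.21 CPM in Apc and 57.7 ± 14.2 CPM in WT. Their 95% intervals in Apc against WT ran from -0.51 to 0.42, from -0.52 to 0.31 and from -0.45 to 0.25, which include moderate falls. An antisense gene, Gm48529, covers 62.4% of the exon bases of Tagln and was itself at 2.35 to 4.78 CPM. With the strand setting not given, how reads in this overlap were counted is not known. The level of Tagln, and any ratio that uses it, carries this limit.

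**Figure D2:**
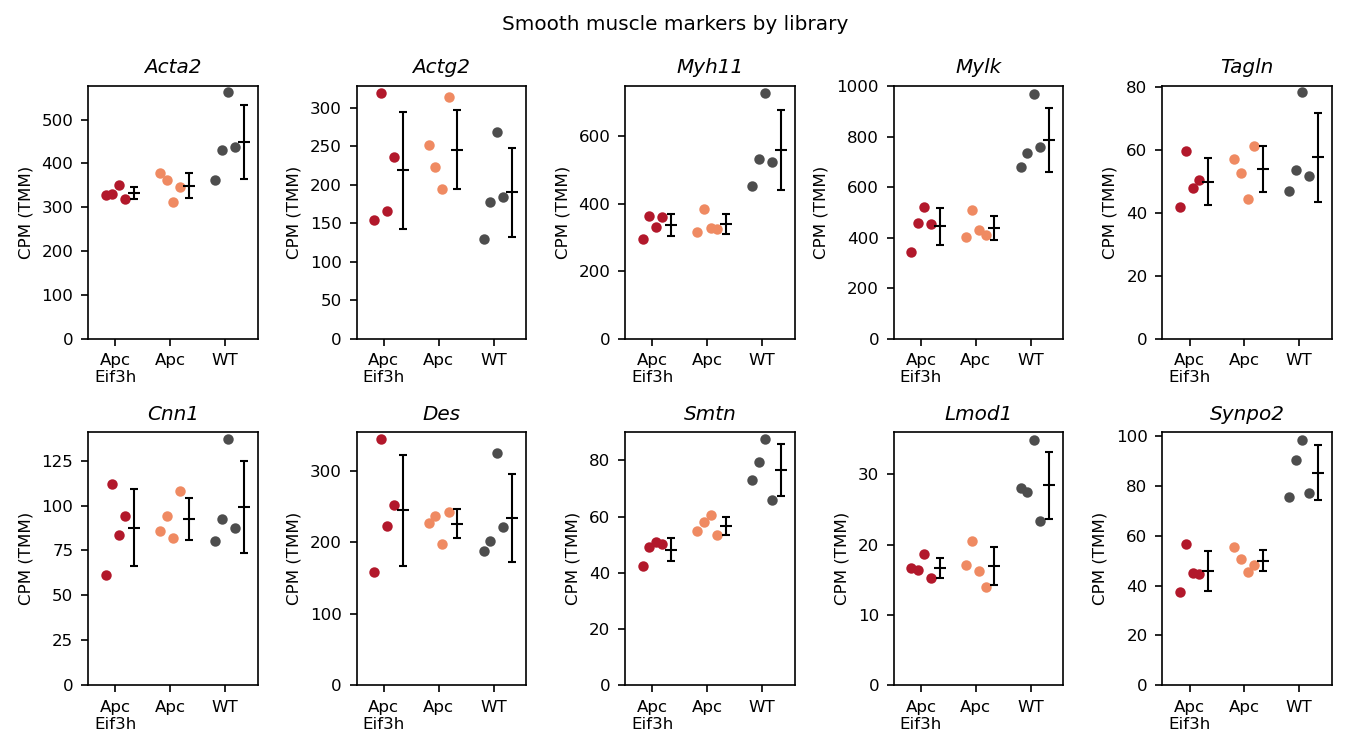
Level in CPM after scaling (vertical axis, from 0) of each smooth muscle marker in the 12 libraries, with mean and SD of each group beside its points. Myh11, Mylk, Lmod1, Smtn and Synpo2 are lower in every Apc Eif3h and Apc library than in any WT library, whereas Actg2, Des, Cnn1 and Tagln overlap.

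Ratios of 2 genes within a library do not depend on the scaling between libraries. These pairs were chosen after the values were seen and are given with no test. Actg2 over Myh11 was 0.641 ± 0.173 in Apc Eif3h, 0.732 ± 0.183 in Apc and 0.336 ± 0.0359 in WT (SD, n = 4 each), and the lowest mutant library, at 0.505, was above the highest WT library, at 0.370. Des over Mylk was 0.548 ± 0.144 in Apc Eif3h, 0.519 ± 0.0663 in Apc and 0.294 ± 0.0277 in WT, and Tagln over Synpo2 was 1.09 ± 0.0376 in Apc Eif3h, 1.08 ± 0.131 in Apc and 0.670 ± 0.0903 in WT. Exon length differs between the sets: Synpo2, Mylk and Myh11, which fell, have 13.1, 11.3 and 7.60 kb of exon, and Cnn1, Tagln and Actg2, which were not called, have 2.74, 1.99 and 1.56 kb. Between them lie Smtn (4.38 kb), Lmod1 (3.95 kb) and Acta2 (2.20 kb), which fell, and Des (3.75 kb), which was not called. Over all tested genes the median log2 fold change in Apc against WT was 0.05 for genes with under 2 kb of exon and -0.00 for those with 8 kb or more. In Apc Eif3h against WT these medians were 0.08 and -0.06. With a length term in the fit, the same 6 smooth muscle genes were called lower in both contrasts.

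Smooth muscle promoters are known for the CArG box, the 10-letter site of serum response factor, 2 C, 6 letters of A or T and 2 G, read on both strands. RefSeq promoter windows of GRCm38.p6, from 250 bases before to 50 after the start, were found for 24 of the 36 markers, 7 of them smooth muscle genes; Actg2, Myh11 and Tagln had none. The full box was in 1.63% of all 32851 promoter windows. A marker was counted where any of its windows held a box, so marker counts are of genes and not of windows. The 2 kinds of share are therefore not of like units. By gene, the full box was found for 0 of the 7 smooth muscle genes and 1 of the 24 markers, the neuron gene Elavl4. A looser box, with 1 C or G allowed among the 6 central letters, was tried after that count was seen. It was in 9.98% of all promoter windows. By gene, it was found for 1 of 7 smooth muscle, 4 of 8 endothelial, 1 of 7 neuron and 0 of 2 glial genes. The smooth muscle promoter with it was that of Acta2, where it occurs in 2 places, and these 100-base stretches show it beside the full box of Elavl4, with boxes in capitals.
Acta2 (chr19:34255378-34255477, minus strand): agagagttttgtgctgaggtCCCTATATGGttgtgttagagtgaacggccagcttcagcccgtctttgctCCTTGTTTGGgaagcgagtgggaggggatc
Elavl4 (chr4:110287478-110287577, minus strand): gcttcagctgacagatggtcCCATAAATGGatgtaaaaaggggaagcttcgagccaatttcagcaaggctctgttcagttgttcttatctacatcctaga
The boxes start 84 and 34 bases before a RefSeq start of Acta2 and 30 bases before one of Elavl4. Both stretches lie inside the annotated genes, which on the minus strand begin at 34255590 for Acta2 and 110351909 for Elavl4. These are therefore not the outermost starts. A match is a stretch of letters and says nothing of binding here.

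Of the 14 endothelial genes, 11 were called lower in Apc Eif3h against WT, beside 28.1% of all tested genes. In Apc against WT, 7 were lower and 1 higher, beside 24.1% and 27.7%. Cldn5, the tight junction protein of endothelium, had the largest fall of the 36. It was at 1.80, 2.04, 2.48 and 1.12 CPM in Apc Eif3h, 1.16, 2.72, 1.25 and 1.61 CPM in Apc and 8.91, 4.98, 6.16 and 3.95 CPM in WT, from 13 to 115 raw counts. No mutant library reached a WT library, and the log2 fold change was -1.71 in Apc Eif3h against WT (SE 0.32, adjusted p = 0.000765) and -1.80 in Apc against WT (SE 0.33, adjusted p = 0.000736). Tek, the receptor of angiopoietins, was at 4.55, 6, 5.34 and 5.22 CPM in Apc Eif3h, 4.90, 7.84, 6.69 and 6.38 CPM in Apc and 14.2, 15.4, 8.32 and 9.97 CPM in WT. Tie1, its partner receptor, was at 8.22, 10.8, 11.1 and 9.69 CPM in Apc Eif3h, 8.37, 14.1, 11.2 and 13.3 CPM in Apc and 29.6, 21.2, 13.9 and 15.7 CPM in WT. Tek did not overlap with WT in either mutant group, and Tie1 overlapped only in Apc. Tek had log2 fold changes of -1.18 in Apc Eif3h against WT (adjusted p = 0.000408) and -0.88 in Apc against WT (adjusted p = 0.0031), and Tie1 had -1.02 in Apc Eif3h against WT (adjusted p = 0.00235) and -0.77 in Apc against WT (adjusted p = 0.0132).

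Sox18 and Emcn also separated the mutant groups from WT. The first, a transcription factor of vessel and lymphatic growth, was at 6.22, 5.57, 5.34 and 4.96 CPM in Apc Eif3h, 4.19, 7.26, 5.93 and 5.61 CPM in Apc and 14.6, 9.19, 10.4 and 9.31 CPM in WT. The second, a sialomucin of capillaries and veins, was at 7.95, 7.36, 7.51 and 6.83 CPM in Apc Eif3h, 7.21, 8.73, 7.72 and 7.27 CPM in Apc and 15.0, 12.1, 11.1 and 9.97 CPM in WT. Every mutant library was below every WT library for both. Sox18 had log2 fold changes of -0.98 in Apc Eif3h against WT (adjusted p = 0.000848) and -0.91 in Apc against WT (adjusted p = 0.00171), and Emcn had -0.70 in Apc Eif3h against WT (adjusted p = 0.000934) and -0.64 in Apc against WT (adjusted p = 0.00211).

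The general endothelial markers were less separated. Cdh5, the cadherin of endothelial junctions, was at 10.3, 15.4, 11 and 11.3 CPM in Apc Eif3h, 10.8, 14.4, 12.9 and 16.0 CPM in Apc and 30.3, 24.1, 14.1 and 15.0 CPM in WT. Pecam1, an adhesion molecule of endothelium and some blood cells, was at 21.7, 42.1, 25.1 and 23.5 CPM in Apc Eif3h, 25.3, 30.2, 29.3 and 33.7 CPM in Apc and 54.2, 49.1, 28.1 and 38.9 CPM in WT. In both genes WT replicates 1 and 2 were above every mutant library and replicates 3 and 4 were within the mutant range, and Pecam1 was highest among Apc Eif3h libraries in replicate 2, the one with high B cell genes, whose part in the value was not tested. Cdh5 had a log2 fold change of -0.80 in Apc Eif3h against WT (SE 0.23, adjusted p = 0.0111) and -0.62 in Apc against WT (SE 0.23, adjusted p = 0.0402). That second call did not hold when any of WT replicates 1 and 2, Apc replicates 1, 2 and 3 and Apc Eif3h replicate 4 was left out (adjusted p up to 0.147). Pecam1 had -0.60 in Apc Eif3h against WT (SE 0.23, adjusted p = 0.0367), lost without WT replicate 1 or 2 or Apc Eif3h replicate 1, 3 or 4 (adjusted p up to 0.111), and -0.52 in Apc against WT (adjusted p = 0.0693), which passed without WT replicate 3 (0.0203) or without Apc Eif3h replicate 2 (0.0226).

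Vwf, the von Willebrand factor of blood clotting, was at 13.9, 13.1, 13.1 and 12.3 CPM in Apc Eif3h, 17.2, 21.1, 12.8 and 17 CPM in Apc and 34.2, 23.1, 15.5 and 24.7 CPM in WT. The Apc Eif3h libraries lay below WT and the Apc libraries overlapped with it. The log2 fold change was -0.90 in Apc Eif3h against WT (adjusted p = 0.00258) and -0.52 in Apc against WT (adjusted p = 0.048), a call lost in 10 of the 12 fits that leave out 1 library, all but those without WT replicate 3 or Apc replicate 2 (adjusted p up to 0.172). Kdr, the main receptor of vascular endothelial growth factor, was at 22.5, 29.9, 28.9 and 27.0 CPM in Apc Eif3h, 31.0, 36.9, 34.6 and 28.8 CPM in Apc and 49.6, 42.1, 29.7 and 36.7 CPM in WT. Both mutant groups overlapped with WT, Apc Eif3h through WT replicate 3 and Apc through WT replicates 3 and 4. It passed in Apc Eif3h against WT (-0.55, adjusted p = 0.00705) and did not in Apc against WT (-0.27, adjusted p = 0.142, or 0.0315 without WT replicate 3). Eng, a co-receptor of the TGF-beta family, averaged 24.5 ± 3.04 CPM in Apc Eif3h, 31.5 ± 3.32 CPM in Apc and 34.7 ± 11.9 CPM in WT (SD, n = 4 each). A log2 fold change of -0.50 in Apc Eif3h against WT missed the threshold (adjusted p = 0.0518). It passed without WT replicate 3 (0.00279) or Apc Eif3h replicate 2 (0.0375), with DESeq2 (0.0392), with RLE scaling (0.0422) and with the length term (0.0476). Egfl7, a secreted vessel protein, averaged 19.0 ± 2.85 CPM in Apc Eif3h, 18.2 ± 1.97 CPM in Apc and 21.8 ± 4.71 CPM in WT and was called in no contrast.

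The lymphatic markers Lyve1 and Flt4 were called lower in Apc Eif3h against WT and not in Apc against WT, and the contrast of the mutant groups themselves did not pass. Lyve1, the hyaluronan receptor of lymphatic endothelium and some macrophages, was at 10.5, 8.79, 9.06 and 7.28 CPM in Apc Eif3h, 10.2, 13.0, 14 and 17.5 CPM in Apc and 22.8, 16.5, 12.8 and 12.8 CPM in WT. The Apc Eif3h libraries lay below all WT libraries, and the Apc libraries overlapped with both. Its log2 fold change was -0.87 in Apc Eif3h against WT (adjusted p = 0.00359), -0.24 in Apc against WT (adjusted p = 0.346) and -0.63 in Apc Eif3h against Apc (95% interval -1.09 to -0.18, adjusted p = 0.0889, and 0.0433 with DESeq2). Flt4, the receptor of lymphatic growth factors, was at 8.02, 8.66, 8.93 and 7.86 CPM in Apc Eif3h, 8.99, 11.1, 11.7 and 11.3 CPM in Apc and 18.7, 17.4, 8.82 and 12.6 CPM in WT. For Flt4 all 4 Apc Eif3h libraries lay below all Apc libraries, while 1 WT library, replicate 3, lay at the mutant level. The log2 fold change was -0.79 in Apc Eif3h against WT (adjusted p = 0.00466), -0.41 in Apc against WT (adjusted p = 0.0917, or 0.00704 without WT replicate 3) and -0.37 in Apc Eif3h against Apc (adjusted p = 0.279).

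Sox17 went the other way. It encodes a transcription factor of arterial endothelium that is also known from early endoderm (chromosome 1, 4490931 to 4497354, minus strand, GRCm38). It was at 3.21, 3.77, 19.0 and 5.36 CPM in Apc Eif3h, 12, 19.9, 19.6 and 7.99 CPM in Apc and 6.28, 3.06, 1.5 and 2.55 CPM in WT. Every Apc library was above every WT library, and Apc Eif3h replicate 3 was at the Apc level while the other 3 Apc Eif3h libraries were within the WT range. The log2 fold change was 1.22 in Apc Eif3h against WT (95% interval -0.08 to 2.51, adjusted p = 0.0984), 2.15 in Apc against WT (SE 0.59, adjusted p = 0.0087) and -0.93 in Apc Eif3h against Apc (95% interval -2.09 to 0.22, adjusted p = 0.315). The rise in Apc over WT kept its call in each of the 12 fits that leave out 1 library. Without Apc Eif3h replicate 3, Sox17 was lower in Apc Eif3h than in Apc (-1.82, adjusted p = 0.0174), and without WT replicate 1 it was higher in Apc Eif3h than in WT (1.71, adjusted p = 0.046). Set against another endothelial gene of the same library, a pair also chosen after the values were seen, Sox17 over Cdh5 was 0.688 ± 0.697 in Apc Eif3h, 1.13 ± 0.450 in Apc and 0.153 ± 0.0452 in WT (SD, n = 4 each). An antisense gene, Gm37587, covers 16.8% of its exon bases and was at no more than 0.109 CPM in any library.

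**Figure D3:**
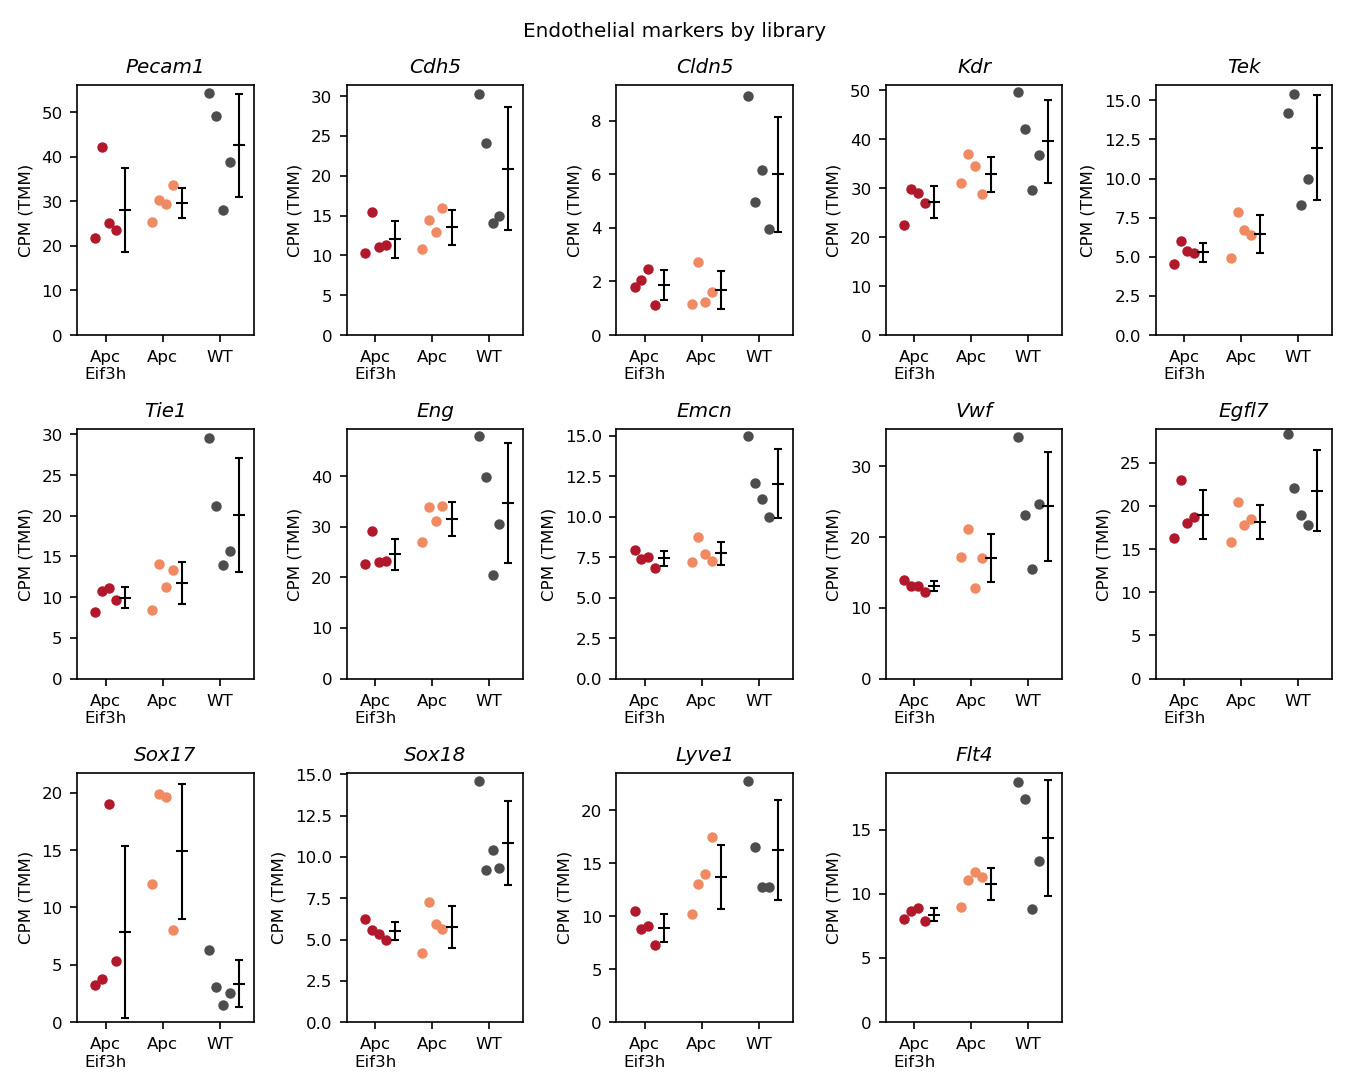
Level in CPM after scaling (vertical axis, from 0) of each endothelial marker in the 12 libraries, with mean and SD of each group beside its points. Cldn5, Tek, Sox18 and Emcn separate both mutant groups from WT, and Sox17 is higher in the Apc libraries, with 1 Apc Eif3h library at 19.0 CPM.

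All 9 enteric neuron genes were lower in Apc Eif3h than in WT, and 7 were lower in Apc than in WT, beside 28.1% and 24.1% of all tested genes. Uchl1, the ubiquitin hydrolase abundant in neurons, was at 5.48, 7.12, 6.89 and 5.62 CPM in Apc Eif3h, 6.95, 7.16, 6.58 and 5.50 CPM in Apc and 11.2, 12.9, 13.1 and 12.8 CPM in WT. Its log2 fold change was -0.99 in Apc Eif3h against WT (SE 0.13, adjusted p = 6.06e-05) and -0.93 in Apc against WT (SE 0.13, adjusted p = 0.000141), with no overlap between the mutant groups and WT. Between the mutant groups it was -0.06 (95% interval -0.35 to 0.23). An antisense gene, Uchl1os, covers 18.1% of its exon bases and averaged 0.0206 CPM in WT. Elavl4, the neuronal RNA-binding protein HuD, was at 1.07, 1.55, 1.68 and 1.25 CPM in Apc Eif3h, 2.49, 2.46, 1.79 and 1.87 CPM in Apc and 3.02, 4.06, 3.74 and 2.31 CPM in WT. All Apc Eif3h libraries lay below all Apc libraries, and 1 WT library lay within the Apc range. Its log2 fold change was -1.25 in Apc Eif3h against WT (adjusted p = 0.000569), -0.63 in Apc against WT (adjusted p = 0.0277) and -0.62 in Apc Eif3h against Apc (adjusted p = 0.126). The call in Apc against WT did not hold when any of WT replicates 2 and 3 and Apc replicates 3 and 4 was left out (adjusted p up to 0.092).

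Tubb3, Prph and Snap25 fell against WT in both mutant groups. Tubb3, the neuronal tubulin, was at 3.34, 3.71, 3.66 and 2.77 CPM in Apc Eif3h, 2.94, 3.87, 3.59 and 5.29 CPM in Apc and 5.50, 5.70, 6.24 and 6.67 CPM in WT. Prph, the intermediate filament of peripheral neurons, was at 4.28, 5.75, 5.03 and 5.27 CPM in Apc Eif3h, 4.36, 4.81, 4.35 and 3.89 CPM in Apc and 8.06, 7.19, 12.5 and 8.40 CPM in WT. Snap25, part of the complex that fuses synaptic vesicles, was at 4.28, 6.19, 7.45 and 5.94 CPM in Apc Eif3h, 4.90, 6.38, 5.60 and 3.84 CPM in Apc and 8.06, 9.76, 10.1 and 8.40 CPM in WT. None of the 3 overlapped between a mutant group and WT. In Apc Eif3h against WT the log2 fold changes were -0.84 for Tubb3 (adjusted p = 0.00188), -0.82 for Prph (adjusted p = 0.00173) and -0.60 for Snap25 (adjusted p = 0.0155). In Apc against WT they were -0.60 for Tubb3 (adjusted p = 0.0145), -1.05 for Prph (adjusted p = 0.000491) and -0.81 for Snap25 (adjusted p = 0.00377). Enteroendocrine cells of the epithelium also use Snap25 and other neuronal genes. Of 17 enteroendocrine markers, 10 were lower and 1 higher (Insm1) in Apc Eif3h against WT, beside 28.1% and 29.8% of all tested genes. In Apc against WT, 12 were lower and 0 higher, beside 24.1% and 27.7%. The part of enteroendocrine cells in the neuron values was not tested.

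Transmitter and receptor genes were lower in Apc Eif3h than in WT, and Vip and Nos1 also in Apc. Vip, the relaxing neuropeptide, was at 14.2, 18.2, 21.4 and 14.8 CPM in Apc Eif3h, 17.8, 24.8, 22.2 and 19.8 CPM in Apc and 32.9, 44.4, 35.7 and 36.7 CPM in WT. Nos1, the neuronal nitric oxide synthase of inhibitory motor neurons, was at 1.94, 1.79, 2.11 and 3.17 CPM in Apc Eif3h, 2.23, 3.45, 2.45 and 2.54 CPM in Apc and 4.88, 6.62, 5.91 and 4.12 CPM in WT. Neither overlapped between a mutant group and WT. Vip had log2 fold changes of -1.13 in Apc Eif3h against WT (adjusted p = 6.06e-05) and -0.82 in Apc against WT (adjusted p = 0.000732), and Nos1 had -1.23 in Apc Eif3h against WT (adjusted p = 0.000602) and -1.0 in Apc against WT (adjusted p = 0.0026). Chat makes acetylcholine and was scarce, with 4, 6, 6 and 5 raw counts in Apc Eif3h, 3, 13, 15 and 5 in Apc and 8, 10, 16 and 13 in WT. Its levels were 0.267, 0.371, 0.372 and 0.223 CPM in Apc Eif3h, 0.267, 0.679, 0.816 and 0.259 CPM in Apc and 0.620, 0.712, 1.33 and 1.07 CPM in WT, with no overlap between Apc Eif3h and WT. The log2 fold change was -1.58 in Apc Eif3h against WT (adjusted p = 0.00582) and -0.80 in Apc against WT (adjusted p = 0.0888). Ret, the receptor of GDNF needed for the enteric nervous system, was at 7.22, 8.48, 8.44 and 8.12 CPM in Apc Eif3h, 14, 10.3, 11.8 and 7.89 CPM in Apc and 11, 12.7, 13.4 and 8.24 CPM in WT, with all groups overlapping. It had -0.49 in Apc Eif3h against WT (adjusted p = 0.0369), lost without WT replicate 1, 2 or 3 or Apc Eif3h replicate 1, 3 or 4 (adjusted p up to 0.102), and -0.05 in Apc against WT (adjusted p = 0.817).

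The 3 glial genes were at or near 1 CPM, so single libraries weigh heavily. Sox10, a transcription factor of glia and their neural crest precursors, had 8, 11, 12 and 29 raw counts in Apc Eif3h, 5, 23, 19 and 19 in Apc and 27, 21, 19 and 17 in WT. These are 0.535, 0.681, 0.745 and 1.29 CPM in Apc Eif3h, 0.445, 1.20, 1.03 and 0.986 CPM in Apc and 2.09, 1.5, 1.58 and 1.40 CPM in WT, with no overlap between a mutant group and WT. Sox10 had a log2 fold change of -0.95 in Apc Eif3h against WT (adjusted p = 0.0178, but 0.0578 without WT replicate 1) and -0.78 in Apc against WT (adjusted p = 0.0461). The second call was lost in 8 of the 12 fits that leave out 1 library, namely any of the 4 WT libraries, Apc replicate 1, 3 or 4 or Apc Eif3h replicate 3 (adjusted p up to 0.13), and DESeq2 did not make it. S100b, a calcium-binding protein of glia, was at 0.735, 1.42, 1.12 and 1.07 CPM in Apc Eif3h, 0.980, 0.732, 0.925 and 2.08 CPM in Apc and 2.17, 1.35, 2.08 and 1.65 CPM in WT, overlapping in both mutant groups. It had log2 fold changes of -0.72 in Apc Eif3h against WT (adjusted p = 0.0754) and -0.59 in Apc against WT (adjusted p = 0.144), both passing without Apc replicate 4 (adjusted p = 0.0231, and -1.05 with 0.0094) and the first also with only the 2 groups compared (0.0363). Gfap, the glial filament protein, averaged 1.62 ± 0.345 CPM in Apc Eif3h, 1.16 ± 0.101 CPM in Apc and 1.15 ± 0.204 CPM in WT (SD, n = 4 each). It was 0.49 higher in Apc Eif3h than in WT on the log2 scale (95% interval 0.03 to 0.95, adjusted p = 0.0619) and 0.47 higher than in Apc (adjusted p = 0.183), neither past the threshold.

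**Figure D4:**
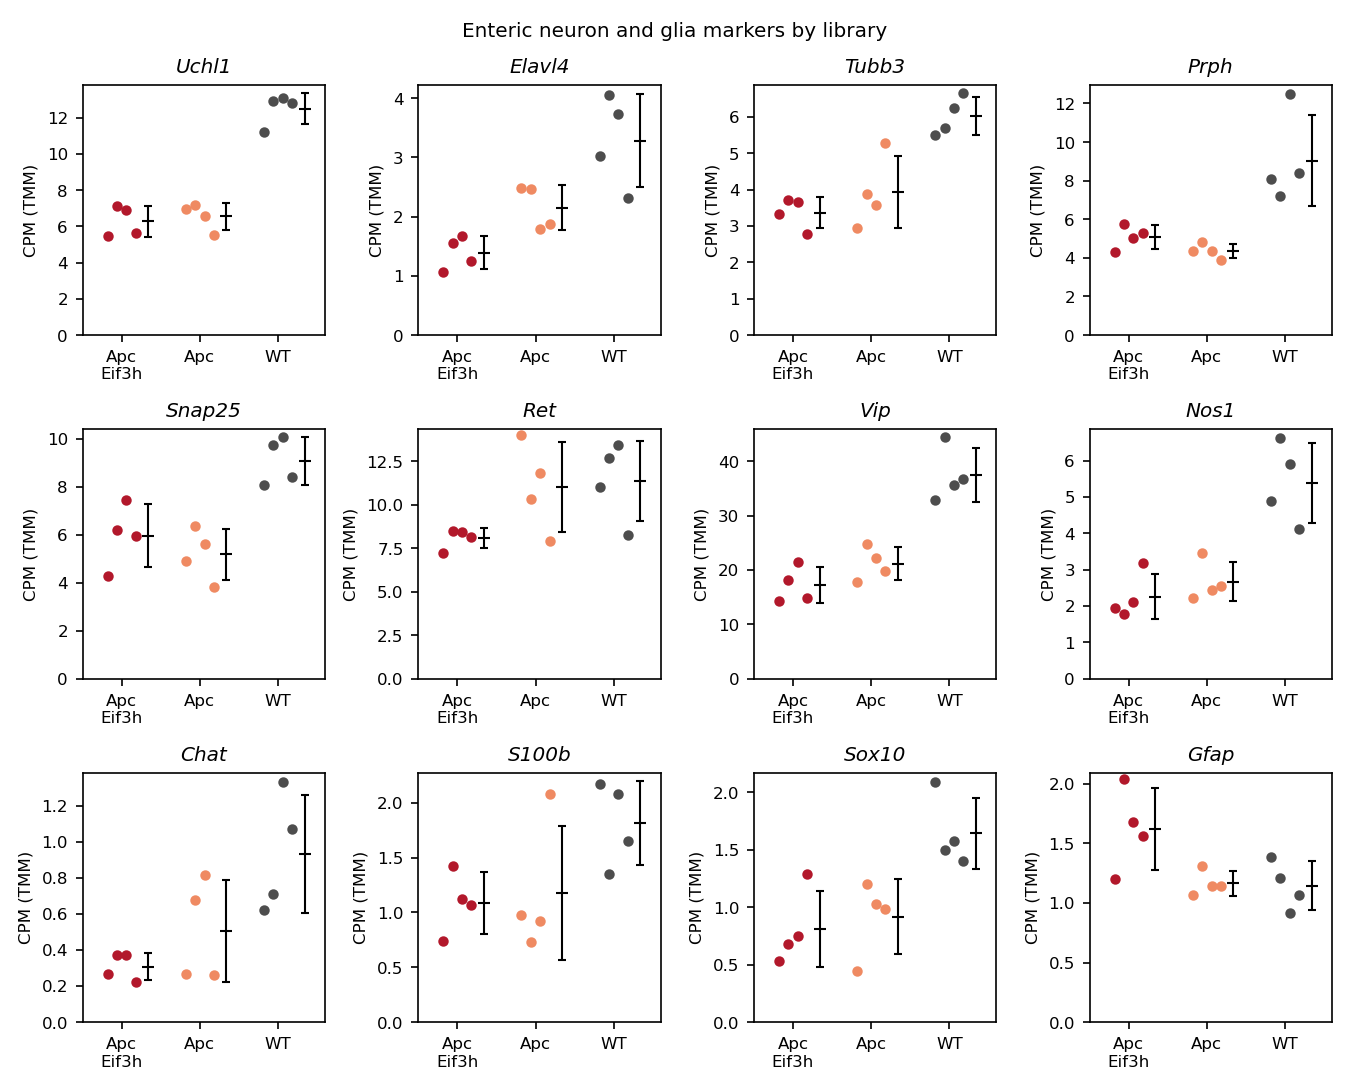
Level in CPM after scaling (vertical axis, from 0) of each enteric neuron and glia marker in the 12 libraries, with mean and SD of each group beside its points. Uchl1, Tubb3, Prph, Snap25, Vip and Nos1 separate both mutant groups from WT, while Ret, S100b and Gfap overlap.

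Counts of further markers of these classes stand beside 28.1% of all tested genes called lower and 29.8% called higher in Apc Eif3h against WT, and 24.1% and 27.7% in Apc against WT. Of 20 further smooth muscle genes, 14 were lower and 1 higher (Srf, serum response factor) in Apc Eif3h against WT, and 10 lower and the same 1 higher in Apc against WT. Mrvi1 was at -0.86 in both contrasts, and Cald1, the actin-binding protein caldesmon, was the 1 further muscle gene called in Apc Eif3h against Apc (-0.37, SE 0.09, adjusted p = 0.0289). Of 18 further blood endothelial genes, 13 were lower and 0 higher in Apc Eif3h against WT, and 7 lower and 1 higher (Tspan7) in Apc against WT. The progenitor and capillary gene Cd34 was at -1.34 in Apc Eif3h against WT (SE 0.22) and -0.99 in Apc against WT (SE 0.22). Of 6 further lymphatic genes, 3 were lower and 1 higher in Apc Eif3h against WT and 2 lower and 1 higher in Apc against WT, counts too small to set against those shares. Mmrn1 was at -1.20 in Apc Eif3h against WT (adjusted p = 0.0023) and was not called in Apc against WT (-0.39, adjusted p = 0.231). The higher one was Prox1, a transcription factor of lymphatic identity that other cell types, gut endocrine cells among them, also use. Prox1 was at 7.82, 3.03, 12 and 4.82 CPM in Apc Eif3h, 16.2, 19.3, 26.1 and 8.30 CPM in Apc and 3.56, 2.85, 3.33 and 2.55 CPM in WT. Its log2 fold changes were 1.16 in Apc Eif3h against WT (adjusted p = 0.0355) and 2.51 in Apc against WT (adjusted p = 0.000445). Its value was -1.35 in Apc Eif3h against Apc (edgeR adjusted p = 0.0525, and 0.00847 with DESeq2). Of 18 tested further neuron genes, 12 were lower in Apc Eif3h and 11 in Apc against WT, and none was higher, with Map1b at -0.93 in Apc Eif3h against WT (adjusted p = 0.000113), Nmu at -1.95 in Apc against WT (adjusted p = 0.000162), and Stmn2 at -1.24 in Apc Eif3h against WT and -1.10 in Apc against WT. Of 8 tested further glial genes, 6 were lower in Apc Eif3h against WT and 4 in Apc against WT, and none was higher, with Entpd2 at -1.15 and -0.83 in these contrasts. Some of these genes were far above the glial markers: Erbb3, L1cam and Entpd2 averaged 731, 34.4 and 30.9 CPM in WT. Sox10 and S100b averaged 1.64 and 1.81 CPM there. Which cells gave the reads of Erbb3, L1cam and Entpd2 was not tested. These lists, like the 36, were chosen with earlier results of these data known.

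Genes of other cell types were counted in the same way, beside the same shares of all tested genes. In Apc Eif3h against WT, 14 of 15 fibroblast genes, 7 of 8 macrophage genes, 9 of 10 tuft cell genes, 5 of 7 pericyte genes and 4 of 5 genes of interstitial cells of Cajal were lower, and none was higher. In Apc against WT the counts were 6 of 15, 7 of 8, 9 of 10, 4 of 7 and 3 of 5, again with none higher. Of 14 general epithelial genes, 3 were lower and 2 higher in Apc Eif3h against WT and 5 lower and 1 higher in Apc against WT. Summed over the 10 smooth muscle genes, levels were 1478 to 2109 CPM in Apc Eif3h, 1710 to 1988 CPM in Apc and 2115 to 3290 CPM in WT. Over the 14 endothelial genes they were 158 to 206 CPM in Apc Eif3h, 184 to 242 CPM in Apc and 200 to 375 CPM in WT. Over the 15 fibroblast genes they were 970 to 1179 CPM in Apc Eif3h, 1213 to 1756 CPM in Apc and 1507 to 2589 CPM in WT. Their shares in the marker values were not tested.

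**Figure D5:**
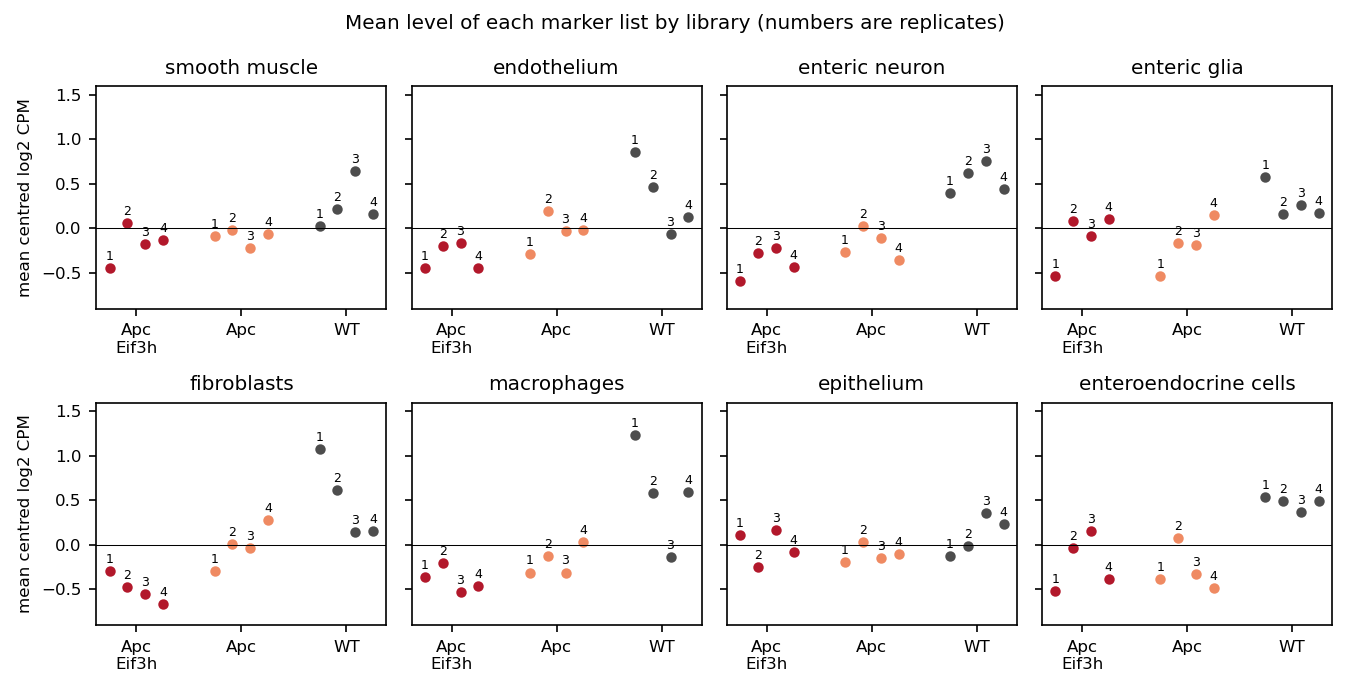
Mean over a list's genes of log2 CPM centred per gene (vertical axis), 1 point per library with its replicate number, for the 4 marker classes and 4 other cell types. WT replicate 1 is highest for endothelium (0.86), fibroblasts (1.08) and macrophages (1.24), and WT replicate 3 for smooth muscle (0.65) and enteric neurons (0.76).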

How the data were processed

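Counts per gene for 12 libraries were used as the authors deposited them, raw and not normalized. Per the labels' protocols, column-purified RNA went into TruSeq RNA libraries read as paired ends of 36 cycles. Per the submitters' processing notes, the tools were HISAT2 2.1.0, featureCounts 1.6.4, Trim Galore 0.6.4 and FastQC 0.11.8, and the build was GRCm38. Their gene annotation, strand setting and handling of multiply mapped reads are not stated there. Symbols, coordinates and exon lengths came from GENCODE M21, which matched 55154 of 55421 identifiers.

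Counts were filtered with filterByExpr by group and scaled by TMM. They were fitted with edgeR 4.0.16 in R 4.3.3 as 1 quasi-likelihood model of all 12 libraries with 1 mean per group. P-values were adjusted by Benjamini-Hochberg over the 17394 genes tested. The fit used glmQLFit without its legacy option. That setting was not written into the plan: the default legacy fit, a robust form of it and one with library sizes over all genes were run first, and the fit without the option was kept because it is the one an earlier analysis of these data had used. It called 9012 genes in Apc against WT, and the others called 8969, 8933 and 8968. The calls of the 36 markers were the same in all 4 fits. A standard error is the size of a log2 fold change over the root of its F statistic. For scores, a prior count of 2 was added in log2 CPM. The procedure was also run on simulated counts, in which far fewer genes were changed than were called in the contrasts with WT. That run therefore does not check the scaling in those contrasts.

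The alternatives were RLE scaling, library totals only, no low-count filter, DESeq2 1.42.0, only the 2 groups compared, a replicate block, male libraries only and leaving out each library. The length term, the 3 legacy fits, the ratios and the looser CArG box were added after results were seen. The markers and lists were chosen with earlier results of these data known. Every marker called in a contrast or defining its class is given by library and the others by mean; of the other lists, some of the genes with the 3 smallest p in a contrast and those of small counts are named. Prox1 was given by library after its values were seen. The libraries were not treated as paired by replicate number, and no 2 libraries of a group agreed within counting noise (chi-square per gene of 18.4 to 53.6). The planned protein sequences were not used here.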

Additional observations from a re-analysis of the deposited data

Results flagged for a closer look

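Each of the 36 markers was checked in each of the 3 groups for a single library set apart from the other 3, and 3 of these 108 sets of 4 were flagged; chance flags about 1 in 20. Smtn, the smoothelin gene, was lowest in Apc Eif3h replicate 1, at 42.4 CPM, beside 49.3 to 50.9 CPM in the other Apc Eif3h libraries. Eng, the TGF-beta co-receptor of endothelium, was highest in Apc Eif3h replicate 2, at 29.1 CPM, beside 22.7 to 23.3 CPM in the others. That library is the one with the high B cell genes. It was also the highest of its group for other markers, among them Pecam1, Cdh5, Myh11 and Synpo2. So it was for Actg2, Des, Cnn1 and Tagln, the muscle genes not called, but not for Mylk, Acta2, Smtn or Lmod1. Uchl1, the neuronal ubiquitin hydrolase, was lowest in WT replicate 1, at 11.2 CPM, beside 12.8 to 13.1 CPM in the other WT libraries.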

How the results depend on the processing

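The 36 markers gave 108 log2 fold changes over 3 contrasts, each recomputed under the alternatives. Of 2480 such values with an adjusted p, 2333 kept their direction and call, 76 lost a call, 22 gained one, and 49 changed sign with no call on either side; none changed sign with a call. DESeq2 gave Chat no adjusted p in Apc Eif3h against Apc. Of the calls, 17 of 22 in Apc against WT and 24 of 27 in Apc Eif3h against WT held in each of the 12 fits that leave out 1 library, and 14 and 19 held in every alternative. Library totals as the only scaling changed most: 13 markers lower in Apc against WT, 4 of them endothelial and 5 neuronal or glial, and 1 higher in Apc Eif3h against WT (Gfap, a glia marker). Under it the median log2 fold change of the 36 was -0.38 in Apc against WT and -0.58 in Apc Eif3h against WT, in smooth muscle -0.16 and -0.35, and in neurons and glia -0.56 and -0.70. The length term also gave 1 higher in Apc Eif3h against WT (Gfap). DESeq2 gave 1 lower in Apc Eif3h against Apc, the endothelial Lyve1. Leaving out 1 library gave 0 to 1 lower in Apc Eif3h against Apc (Sox17, endothelial, without Apc Eif3h replicate 3) and 0 to 1 higher in Apc Eif3h against WT (Sox17 without WT replicate 1, Gfap without Apc Eif3h replicate 1). The cause of these changes was not tested. Replicate numbers are shared by the groups, and deviations of libraries with the same number had r of -0.142 to 0.236 across genes. These values were not compared with those of other pairs, so whether the libraries are paired was not settled. With a replicate block, 105 of the 108 values kept their call, Chat passed in Apc against WT (adjusted p = 0.0453), and Cdh5 and Sox10 lost theirs there. Depth limits Chat, Sox10, S100b and Gfap, which had 3 to 40 counts a library.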
